A study of Rattus norvegicus with 6 samples.

Results

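Presynaptic release genes encode the machinery that docks, primes, fuses and retrieves synaptic vesicles, and 53 of them were followed here in RNA from rat neural retina. They were taken by name from a list of synaptotagmins, SNARE proteins, complexins, active zone proteins, vesicle proteins and endocytic proteins. All 53 were found, in 54 rows, among the 19623 symbols of a gene table of 26406 rows. The rule goes by gene name and holds no measured value, but the list was drawn up with earlier results of these data known.

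The series holds 6 retina samples in 3 groups of 2, all collected at postnatal day 60. Long Evans rats, a pigmented strain with wild-type retina, had sham surgery with carrier medium. Royal College of Surgeons (RCS) rats, whose photoreceptors degenerate because the phagocytosis receptor Mertk is mutated, had the same sham surgery. A further RCS group received human neural progenitor cells (hNPCs) under the retina, and all operations were at postnatal day 21. In the grafted eyes the RNA came from the retinal portion that carried the graft, and in sham eyes from the corresponding portion. The labels do not say whether the 2 samples of a group are separate animals.

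The table used here gives a single FPKM (fragments per kilobase of transcript, scaled to the mapped fragments of the run) for each gene, with a lower and an upper bound, and none of its columns names a sample. It could therefore not be assigned to a strain or a treatment, and no comparison between Long Evans, RCS and grafted retina was made. Every value below is 1 number for 1 gene from a library or pool of unknown make-up. The bounds follow each value in parentheses. They are read as counting error only and carry no spread between animals. The bounds imply 6124332 fragments in all rows and 59922 in the member rows whose status was OK. In such bulk RNA, fewer cells of a type and less RNA per cell cannot be told apart.

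Retinal neurons use 2 kinds of chemical synapse. Photoreceptors and bipolar cells release glutamate tonically from ribbon synapses, where a plate built of RIBEYE tethers vesicles next to the calcium channels. Amacrine and ganglion cells make conventional synapses like those of the brain, and several proteins of the release machinery exist as separate gene copies (paralogs) favoured by one kind or the other. Cplx3, Cplx4 and Stx3 are the best known ribbon forms, Cplx1, Cplx2 and Stx1a the conventional ones.

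Markers of both kinds of cell were present in the table. The rod genes Gnat1, Sag and Pde6b stood at 6316, 1992 and 518 FPKM, and the ON bipolar genes Pcp2, Prkca and Grm6 at 113, 54.7 and 15.1 FPKM. The amacrine genes Gad1, Slc6a9 and Tfap2b stood at 50.8, 42.2 and 21.1 FPKM, and the ganglion cell genes Sncg, Thy1 and Nefl at 144, 123 and 87.2 FPKM. The microglial genes Aif1 and Csf1r were at 4.12 and 3.62 FPKM. Their part in the levels below was not tested.

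All 53 presynaptic genes reached 1 FPKM, as did 61.0% of all symbols. At 10 FPKM or more there were 35 of the 53, against 28.9% of all symbols, and at 100 FPKM or more there were 7, against 1.79%. The median of the 53 was 13.1 FPKM, beside 3.17 FPKM over all symbols and 9.21 FPKM over the symbols that reached 1 FPKM. The genes were far from even: they ranged from 1.08 FPKM for Syt10 to 536 FPKM for Cplx4. Cplx4 and Snap25 alone held 36.1% of the summed FPKM of the set, and the 7 highest (Cplx4, Snap25, Syp, Vamp2, Nsf, Syt1 and Sv2b) held 62.3%. Together they made up 0.848% of the summed FPKM of the table. These counts include Synj1, whose value has the status FAIL.

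**Figure D1:**
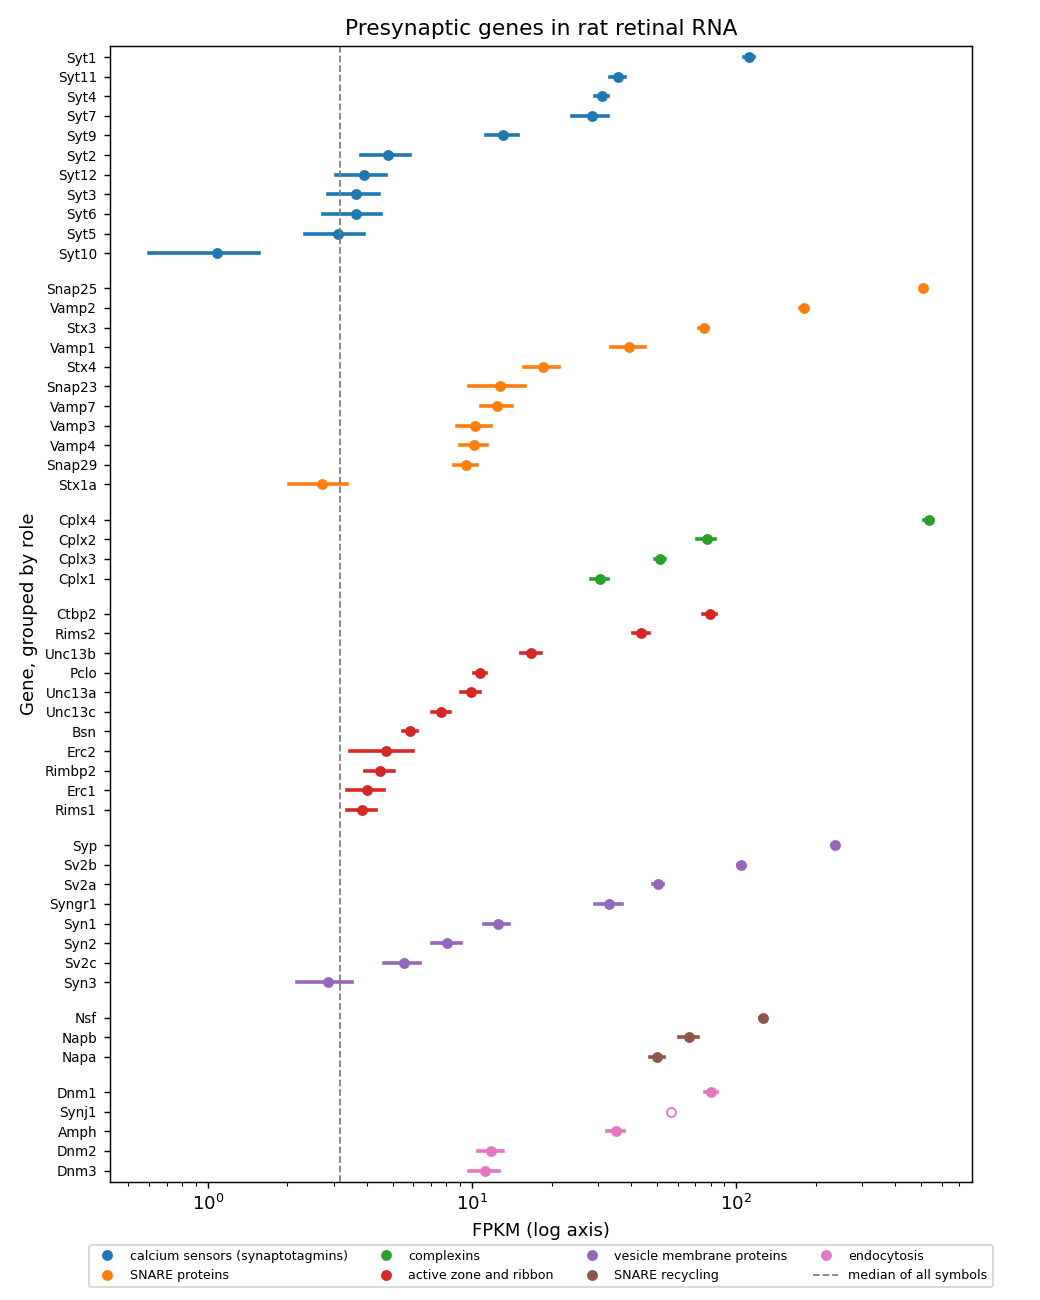
FPKM of the 53 presynaptic genes on a log axis, grouped by role and ordered within each role; points are the authors' values (Rims2 is a sum of 2 rows), bars their lower and upper bounds, the dashed line the median of all symbols (3.17 FPKM), and the open point is Synj1, whose bounds are not drawn because its row has the status FAIL. Levels spread widely within most roles, the 3 SNARE recycling genes lie between 50.3 and 126 FPKM, and Cplx4 and Snap25 are the 2 highest points.

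Complexins are small proteins that clamp and then assist the SNARE complex, and the ribbon form Cplx4 had the highest FPKM of the 53 genes. Cplx4 stood at 536 FPKM (515 to 556), rank 25 of all symbols, with bounds that overlapped those of Snap25 (500.2 to 524). By implied fragments it had 2713, fewer than Snap25 (7421), Syp (6262), Sv2b (5867), Nsf (5441) and Vamp2 (4359). Its row (ENSRNOG00000016928) lies at chr18:60853136-60867940 of build rn5, as the table lists it. Cplx2, a conventional form, followed at 77.2 FPKM (71.3 to 83.2). Cplx3, the second ribbon form, which amacrine cells also express, was at 51.6 FPKM (49.3 to 53.9), and Cplx1 at 30.5 FPKM (28.2 to 32.8). None of these 4 bounds overlapped. Cplx4 held 77.1% of the complexin FPKM (95% counting interval 76.1% to 78.1%), Cplx2 11.1%, Cplx3 7.43% and Cplx1 4.39%. By implied fragments, which are not divided by length, the shares were 44.4% for Cplx4, 33.2% for Cplx3, 11.5% for Cplx1 and 10.9% for Cplx2.

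The SNAREs are the coiled proteins of vesicle and plasma membrane that pull both together. Among the plasma membrane syntaxins, Stx3, the form of ribbon synapses, was at 75.3 FPKM (72.1 to 78.5). Stx4, which serves constitutive secretion in many cells, was at 18.5 FPKM (15.7 to 21.3). Stx1a, a syntaxin of conventional synapses, was at 2.70 FPKM (2.02 to 3.37) from an implied 64 fragments, with the median of all symbols inside its bounds. Stx3 held 78.0% of the FPKM of these 3 syntaxins (75.6% to 80.4%) and Stx1a 2.79%.

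Snap25, the plasma membrane SNARE shared by ribbon and conventional synapses, was at 512 FPKM (500.2 to 524), rank 30 of all symbols. Its broadly expressed relatives were low by comparison: Snap23 was at 12.8 FPKM (9.70 to 15.9). Snap29, which also serves autophagosome fusion, was at 9.49 FPKM (8.51 to 10.5). Snap25 therefore made up 95.8% of the FPKM of the 3 genes (95.2% to 96.4%).

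Vamp2, the main vesicle SNARE of neurons, was at 180 FPKM (175 to 186). Vamp1, a close copy found in a subset of neurons, was at 39.3 FPKM (33.5 to 45.1). The 3 VAMPs of endosomal and Golgi traffic were close to each other: Vamp7 of late endosomes was at 12.5 FPKM, Vamp3 of recycling endosomes at 10.3 FPKM and Vamp4 of the trans-Golgi network at 10.2 FPKM. The bounds of Vamp3 (8.77 to 11.8) overlapped those of Vamp4 (8.98 to 11.4) and Vamp7 (10.8 to 14.1).

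Promoter windows are shown for the complexin pair and the syntaxin pair furthest apart in FPKM (Cplx4 and Cplx1, Stx3 and Stx1a) and for the ribbon gene Ctbp2. They come from RefSeq, build GRCr8, a different build from that of the table, and run from 250 bases before to 50 bases after the annotated start. Of the 53 genes, 42 had such a window, 43 windows in all because Unc13b has 2. No window was found for Snap25, Rims2, Rimbp2, Syn3, Syngr1, Syt5, Syt7, Syt10, Syt12, Vamp3 and Vamp7. Capitals mark matches, on either strand, to TAATCC, the core bound by the photoreceptor factor CRX, to GGGCGG, the GC box, and to CAGCACC, part of the neuronal repressor element RE1. In no window did matches to different motifs overlap.

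The Cplx4 window (chr18:61767705-61768004, minus strand) holds 1 TAATCC, which starts 56 bases before the annotated start. The Ctbp2 window (chr1:197241854-197242153, minus strand) holds 1 on the opposite strand. Whether RIBEYE or another product of Ctbp2 starts at this window was not checked. The Cplx1 window (chr14:1328823-1329122, plus strand) holds 2 GC boxes, and the windows of Stx3 (chr1:218110417-218110716, minus strand) and Stx1a (chr12:27306422-27306721, minus strand) hold 4 each:
Cplx4: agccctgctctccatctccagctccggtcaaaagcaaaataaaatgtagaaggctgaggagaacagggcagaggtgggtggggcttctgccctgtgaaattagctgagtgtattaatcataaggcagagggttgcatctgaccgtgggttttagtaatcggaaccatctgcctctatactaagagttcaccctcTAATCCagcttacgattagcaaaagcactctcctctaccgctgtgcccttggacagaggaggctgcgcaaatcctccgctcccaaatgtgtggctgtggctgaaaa
Cplx1: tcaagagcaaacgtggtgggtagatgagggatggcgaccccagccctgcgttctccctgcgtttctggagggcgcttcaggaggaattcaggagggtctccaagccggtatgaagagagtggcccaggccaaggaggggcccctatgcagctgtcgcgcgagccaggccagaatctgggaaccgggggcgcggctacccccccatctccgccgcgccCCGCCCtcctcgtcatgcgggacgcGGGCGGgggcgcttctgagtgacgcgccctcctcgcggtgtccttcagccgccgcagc
Stx3: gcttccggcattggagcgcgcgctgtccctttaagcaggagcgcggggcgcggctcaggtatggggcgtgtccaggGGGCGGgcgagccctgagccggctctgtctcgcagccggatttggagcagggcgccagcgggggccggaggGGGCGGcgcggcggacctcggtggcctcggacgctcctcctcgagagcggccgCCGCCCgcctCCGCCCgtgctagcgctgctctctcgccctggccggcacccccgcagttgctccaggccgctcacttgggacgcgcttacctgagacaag
Stx1a: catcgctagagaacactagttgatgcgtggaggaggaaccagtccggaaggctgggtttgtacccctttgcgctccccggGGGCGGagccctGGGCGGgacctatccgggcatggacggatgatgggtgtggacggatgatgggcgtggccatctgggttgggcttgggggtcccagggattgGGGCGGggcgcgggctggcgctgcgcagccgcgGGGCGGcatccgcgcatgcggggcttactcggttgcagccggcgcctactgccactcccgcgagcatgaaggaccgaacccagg
Ctbp2: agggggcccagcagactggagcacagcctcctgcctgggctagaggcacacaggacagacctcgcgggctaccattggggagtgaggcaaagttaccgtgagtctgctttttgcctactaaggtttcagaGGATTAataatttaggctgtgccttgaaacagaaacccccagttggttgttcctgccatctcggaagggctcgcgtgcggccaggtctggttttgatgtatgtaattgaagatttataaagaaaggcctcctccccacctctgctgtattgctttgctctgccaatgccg

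TAATCC was found in 4 of the 43 windows, those of Cplx4, Ctbp2, Amph and Unc13c, which is 9.30%, against 7.17% of all 33469 windows of that length. Cplx3 and Stx3, also ribbon forms, had no match. GC boxes were in 30 of the 43 windows, 69.8%, against 33.1% of all windows, and the median G and C content was 64.7% in the 43 and 51.7% in all. Stx3 and Stx1a, far apart in FPKM, had the same number of GC boxes. CAGCACC was in 6 windows (Bsn, Sv2b, Syn1, Syp, Syt4 and Unc13a), 14.0% against 6.78%. These matches are letters in a window and not measured binding.

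The active zone is the release site itself, and here Ctbp2 and Rims2 led. Ctbp2, the gene that encodes both RIBEYE and the transcriptional co-repressor CtBP2, was at 79.7 FPKM (75.2 to 84.2). It has a single row, and which of these products that row covers was not checked. The share of RIBEYE therefore cannot be read from it. Ctbp1, its paralog, was at 59.6 FPKM (56.2 to 63.1).

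RIM proteins bind the vesicle GTPase Rab3 and recruit calcium channels. Rims2, the main RIM of photoreceptors, was at 43.6 FPKM (40.6 to 46.6) summed over 2 rows that share a start. The longer row (chr7:77655909-78157335) was at 28.9 FPKM and the shorter (chr7:77655909-77689547), which lies within it, at 14.7 FPKM. Rims1 was at 3.83 FPKM (3.35 to 4.31), so Rims2 held 91.9% of the RIM FPKM (90.9% to 93.0%) and 80.2% of the implied fragments.

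Munc13 proteins open syntaxin and prime vesicles, and no one of their 3 genes held most of the FPKM. Unc13b, one product of which is the Munc13 of photoreceptor ribbons, was at 16.8 FPKM (15.4 to 18.2). Unc13a, the main Munc13 of brain glutamate synapses, was at 9.90 FPKM (9.10 to 10.7), and Unc13c, best known from the cerebellum, at 7.65 FPKM (7.06 to 8.25). They held 48.9%, 28.8% and 22.3% of the Munc13 FPKM, and by implied fragments 31.1%, 33.2% and 35.7%, so the order turned with the scale.

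The giant scaffold genes were low per length and well covered. Pclo (Piccolo) was at 10.7 FPKM (10.2 to 11.2) from an implied 1636 fragments. Bsn (Bassoon), which anchors the ribbon to the membrane, was at 5.83 FPKM (5.48 to 6.18) from 1130. Ctbp2, at 79.7 FPKM, had a similar implied number, 1244. The linkers of the active zone lay close together: Erc2 (CAST) at 4.71 FPKM (3.45 to 5.97), Rimbp2, which joins RIM to calcium channels, at 4.49 FPKM (3.93 to 5.05) and Erc1 (ELKS) at 3.99 FPKM (3.35 to 4.62). Their bounds overlapped.

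Ribbon forms were then set against their conventional counterparts in 8 pairs, some of which share a gene. The ribbon gene was higher in 7 of 8, with 95% counting intervals above 1. Stx3 was 27.9 times Stx1a (21.8 to 35.8). Cplx4 was 17.5 times Cplx1 (16.1 to 19.1) and 6.93 times Cplx2 (6.37 to 7.55). Rims2 was 11.4 times Rims1 (9.90 to 13.1), or 7.55 times with the longer Rims2 row alone. The gap was smaller for the other genes: Sv2b was 2.07 times Sv2a (1.97 to 2.17), Unc13b was 1.70 times Unc13a (1.51 to 1.90), and Cplx3 was 1.69 times Cplx1 (1.55 to 1.84).

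The exception was Cplx3 against Cplx2, at a ratio of 0.668 (0.612 to 0.729). Implied fragments gave another order for some pairs. Cplx3 then exceeded Cplx2 by 3.05 times and Unc13b was 0.935 times Unc13a. The Cplx4 ratios were 3.87 against Cplx1 and 4.09 against Cplx2, and Rims2 was 4.05 times Rims1. Cplx4 had 5.06 implied fragments per FPKM and Cplx3 39.3, so the transcript length behind these values, or bounds widened by other terms, differs greatly between them. The annotated lengths are not in the table, and this was not tested.

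**Figure D2:**
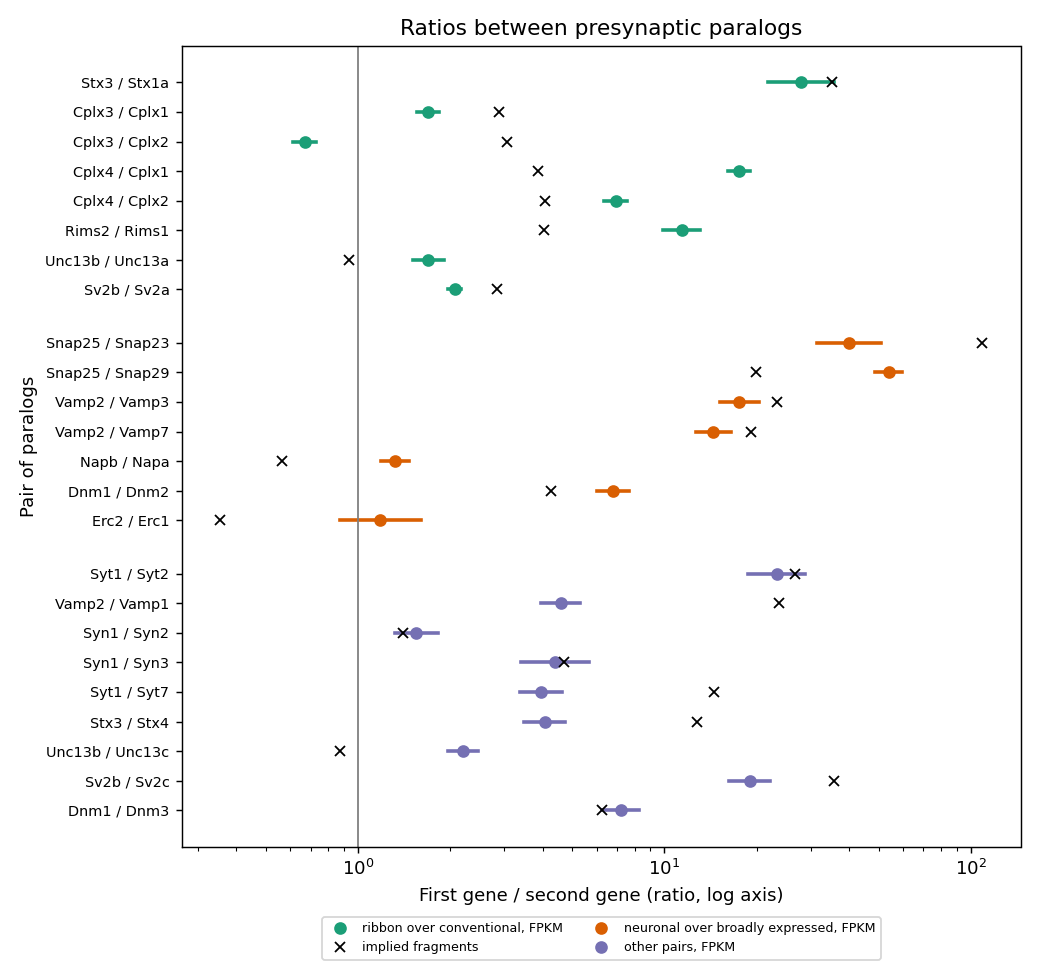
Ratio of the first to the second gene of 24 pairs on a log axis; coloured points are FPKM ratios, bars their 95% counting intervals, crosses the ratio of implied fragments, and the vertical line marks 1. In the ribbon pairs 7 of 8 FPKM points lie above 1, with Cplx3 / Cplx2 at 0.668, and 5 crosses lie on the other side of 1 from their FPKM point.

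Synaptotagmins are the calcium sensors of release. Syt1, the fast sensor, was at 112 FPKM (107 to 117) and held 46.6% of the FPKM of the 11 genes (45.1% to 48.2%). Its close relative Syt2 was at 4.81 FPKM (3.78 to 5.84), so Syt1 was 23.3 times higher (18.8 to 28.8). Syt11 and Syt4, which do not act as calcium sensors of the usual kind, came next, at 35.6 FPKM (33.3 to 37.9) and 31.0 FPKM (29.3 to 32.6). Syt7, the slow sensor of asynchronous release, was at 28.4 FPKM (23.9 to 32.8) and its bounds overlapped those of Syt4.

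The remaining synaptotagmins were lower than Syt7. Syt9 was at 13.1 FPKM (11.3 to 14.9), which was the median of the 53 genes. The names Syt5 and Syt9 have been exchanged between sources, and the table's symbols were kept. Syt12, Syt3, Syt6 and Syt5 lay between 3.89 and 3.11 FPKM with overlapping bounds, near the median of all symbols. Syt10 was lowest at 1.08 FPKM (0.598 to 1.56), from an implied 20 fragments.

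Vesicle membrane proteins were led by Syp (synaptophysin), an abundant tetraspan protein of both synapse kinds, at 236 FPKM (230.1 to 242). The related Syngr1 (synaptogyrin 1) was at 33.1 FPKM (29.2 to 37.0). Among the SV2 glycoproteins, Sv2b was at 105 FPKM (102 to 107), Sv2a at 50.6 FPKM (48.3 to 52.8) and Sv2c at 5.51 FPKM (4.65 to 6.37). Sv2b, known from rod and bipolar terminals, held 65.1% of the SV2 FPKM (64.0% to 66.2%), while Sv2c, known from starburst amacrine cells, held 3.43%.

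Synapsins tether vesicles in conventional terminals and are known to be absent from ribbon terminals. All 3 were far below Syp. Syn1 was at 12.5 FPKM (11.1 to 13.9), Syn2 at 8.06 FPKM (7.03 to 9.10) and Syn3 at 2.84 FPKM (2.17 to 3.51). Summed, they came to 23.4 FPKM.

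After fusion the ATPase NSF and its adaptors take the SNAREs apart, and the 3 such genes among the 53 stood above 50 FPKM. Napg, an adaptor gene outside the 53, was lower, at 26.7 FPKM (25.1 to 28.3). Nsf was at 126 FPKM (123 to 130). The adaptor gene Napb (beta-SNAP), mainly neuronal, was at 66.2 FPKM (60.7 to 71.8) and Napa (alpha-SNAP), expressed in most cells, at 50.3 FPKM (47.1 to 53.5). The ratio of Napb to Napa was 1.32 (1.19 to 1.46) by FPKM, and it turned to 0.563 (0.508 to 0.624) by implied fragments.

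Endocytosis then retrieves the membrane. Dnm1, the neuronal dynamin that cuts vesicles free, was at 80.5 FPKM (76.3 to 84.8) and held 77.8% of the dynamin FPKM (76.1% to 79.5%). The ubiquitous Dnm2 was at 11.8 FPKM (10.5 to 13.1) and Dnm3 at 11.2 FPKM (9.72 to 12.7), with overlapping bounds. Amph (amphiphysin), which recruits dynamin, was at 35.0 FPKM (32.5 to 37.5). Synj1 (synaptojanin 1), the phosphatase that strips clathrin coats, was listed at 56.8 FPKM, but its row is the only one in the table with the status FAIL and its bounds run from 0 to 107. Its level is therefore not known from this table.

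Beyond ribbon pairs, the copy known from neurons was set against a broadly expressed one in 7 pairs. By FPKM the ratio was above 1 in all 7, with its interval above 1 in 6. By implied fragments, counted on the ratio alone, it was above 1 in 5, as Napb to Napa and Erc2 to Erc1 turned. Snap25 was 54.0 times Snap29 (48.6 to 59.9) and 40.0 times Snap23 (31.5 to 50.8). Vamp2 was 17.5 times Vamp3 (15.1 to 20.3), and Dnm1 was 6.80 times Dnm2 (6.04 to 7.66). Erc2 and Erc1 could not be separated, at a ratio of 1.18 (0.870 to 1.60), which was 0.354 by implied fragments.

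**Figure D3:**
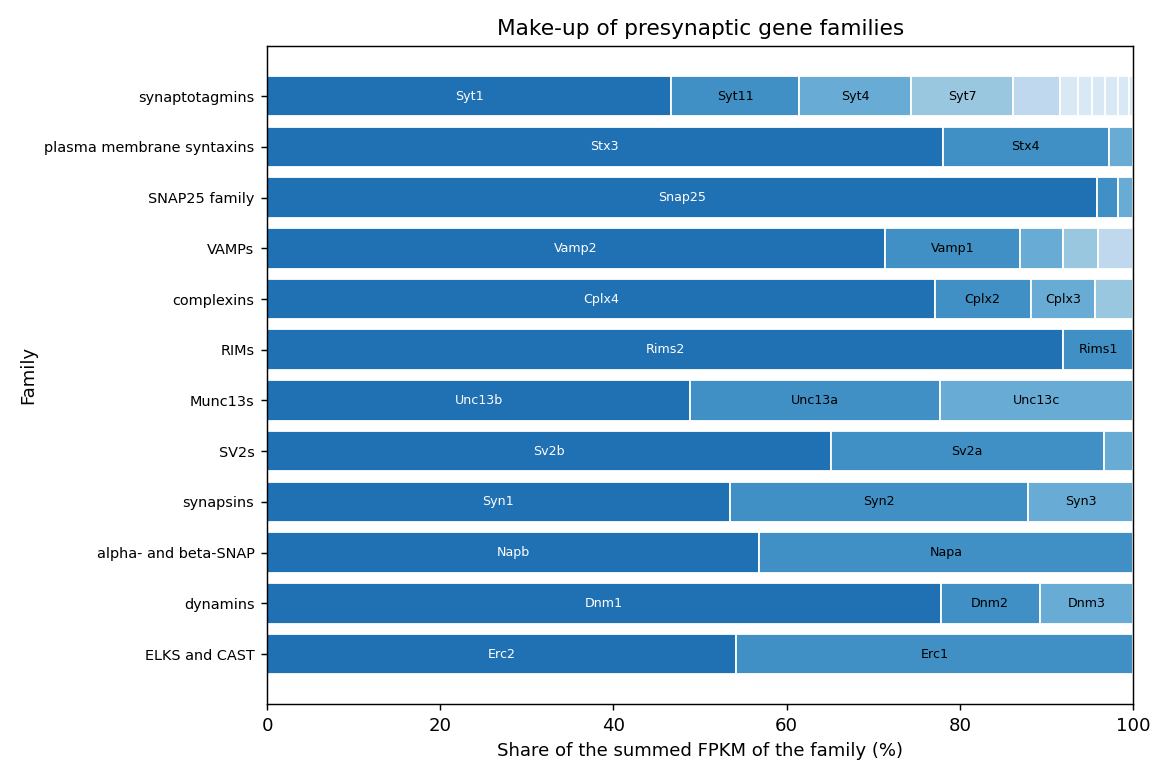
Share of the summed FPKM of each of 12 presynaptic families held by each gene, in percent, with the highest gene at the left and genes above 6% of a family named. One gene holds over 90% of the SNAP25 and RIM families, while the Munc13, synapsin, SNAP adaptor and ELKS families are divided more evenly.

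Other genes of the release pathway, from a list of 63 of which 62 were found, reached similar levels. At 1 FPKM or more there were 60 of 62, and their median was 18.0 FPKM. The highest of those reported here were Slc17a7 (the vesicular glutamate transporter VGLUT1) at 439 FPKM, Cabp4, a calcium-binding regulator of the photoreceptor calcium channel, at 176 FPKM, the clathrin light chain gene Clta at 174 FPKM, the adaptor gene Ap2m1 at 171 FPKM, Rab3a, the vesicle GTPase, at 131 FPKM and Pacsin1, an endocytic membrane-bending protein gene, at 107 FPKM. Cacna1f, which encodes the pore of that calcium channel, was at 57.7 FPKM (55.9 to 59.5). Only Syt8 was listed at 0, and Syt17 was at 0.435 FPKM (0.194 to 0.677).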

How the data were processed

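Retinal RNA of 6 samples in 3 groups of 2 was sequenced. The authors deposited FPKM values, each between 2 confidence bounds, in a table of Cufflinks format, per the file headers. The submitters' processing notes name Cufflinks 2.0.8 and build rn5; aligner and annotation are not stated in the sources used here, nor is the level of the bounds. No column names a sample, so the planned limma comparisons of groups were not run and no p-value is given.

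Rows were matched to the 53 symbols ignoring case, and FPKM of rows sharing a symbol were summed, with Python 3.11.15, numpy 2.4.6 and pandas 2.3.3. Each bound was taken as 2 standard errors from the value. The implied fragment number is the squared ratio of value to standard error; bounds widened by isoforms or shared reads lower it. Of 17 member rows with status OK and up to 200 implied fragments, 12 lay within 0.02 of a whole number; above 200 this reading is an assumption. Ratios of FPKM carry 95% intervals on the log scale, from counting error alone, and a ratio counts as higher where its interval lies above 1. The intervals were tried on simulated counts that held counting error only. Such a trial cannot show how the authors' bounds behave. Counts of pairs by implied fragments use the ratio alone. The genes, lists and pairs were chosen with earlier results of these data known. All 53 genes are named; of the other pathway genes, the 6 highest and those listed at 0 are named, passing to the next gene where an item is not reported here, and a few more (Ctbp1, Cacna1f and Syt17) were chosen after their values were seen. Alternatives covered the handling of repeated rows, the minimum FPKM, an added constant, row status and implied fragments in place of FPKM.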

Additional observations from a re-analysis of the deposited data

How the results depend on the processing

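The 24 paralog ratios were recomputed in 5 ways, and 115 of the 120 values kept their side of 1. That count says little about stability, because most of the ways could hardly turn a ratio. A constant added to both genes cannot change which is higher, and row status changed none of the 24. The highest row per symbol changed only Rims2 to Rims1. With implied fragments, 19 of the 24 kept their direction. The 5 that turned all came with implied fragments in place of FPKM: Cplx3 to Cplx2 at 3.05, Unc13b to Unc13a at 0.935 (0.835 to 1.05), Unc13b to Unc13c at 0.871, Napb to Napa at 0.563 and Erc2 to Erc1 at 0.354. Fragments are not divided by length, so genes with longer transcripts gain. The number of ribbon pairs with the ribbon gene higher was 7 of 8 on both scales, but the exception was Cplx3 to Cplx2 by FPKM and Unc13b to Unc13a by fragments. The share of the 53 genes in the summed FPKM, 0.848%, was 0.866% with the highest row per symbol, where the total shrinks, and 0.978% with implied fragments. Without Synj1 the median was 12.9 FPKM over 52 genes, and 41 of the 53 genes reached 5 FPKM. The share of all symbols at 5 FPKM was not computed. It lies between the 28.9% at 10 FPKM and the 61.0% at 1 FPKM. No paired analysis was possible because the values are not separated by sample, and leaving out a library was not run either. Syt10 (20 implied fragments), Erc2 (56), Syt5 (62) and Stx1a (64) rest on the fewest fragments of the rows with status OK.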

Other observations

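Vesicular transporters, which load the transmitter and so mark the kind of terminal, were read after the values had been seen. Slc17a7, the glutamate transporter of photoreceptor and bipolar terminals, was 23.3 times Slc17a6 (21.7 to 24.9), the form of ganglion cells, at 18.9 FPKM. It was 21.1 times Slc32a1 (19.4 to 23.0), the transporter for GABA and glycine in amacrine and horizontal cells, at 20.8 FPKM. Slc17a8 (VGLUT3), known from a class of amacrine cells, was at 1.09 FPKM (0.740 to 1.43). Within the complexins, Cplx4 was 10.4 times Cplx3 (9.80 to 11.0), although both are called ribbon forms; by implied fragments the ratio was 1.34.

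Unc13b was the only one of the 53 genes with 2 RefSeq promoter windows (build GRCr8), 1 of which holds 3 GC boxes and the other 1. Its single row in the table does not show from which start its 16.8 FPKM came.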
